A study of Salmo salar with 6 samples.

Results

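Genes that mark thrombocytes, blood vessels or lymphatic vessels were followed in the head kidney of Atlantic salmon (Salmo salar), where fish make their blood cells. They were the 6 genes itga2b, gp9, fli1, kdr, pecam1a and lyve1b, chosen by name among 8072 named genes and 25460 genes in all that probes of the array matched through a RefSeq accession. Each was read by 1 probe with 1 spot on each array. The arrays compared juveniles of 252 g after 133 days on a control diet (basal, 0% of the additive) with juveniles on an MPLE diet. MPLE, included at 0.1% in the basal feed, is a plant additive made from sage and lemon verbena that holds ursolic acid, other triterpenes, verbascoside and polyphenols. All fish were unvaccinated and had been bathed in hydrogen peroxide and formaldehyde before the trial. Each diet had 3 pools of head kidney RNA from 6 fish each, and every pool was hybridised to its own one-colour array, so that n counts pools. The labels do not say which tanks a pool came from, so effects of tank and of diet cannot be told apart.

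Thrombocytes are the nucleated cells that do in fish the work of platelets: they bind fibrinogen and von Willebrand factor at a wound and start clotting. Blood vessel endothelium lines arteries, veins and the sinusoids of haematopoietic tissue and responds to vascular endothelial growth factor (VEGF). Lymphatic endothelium lines the vessels that drain tissue fluid, and in zebrafish it is marked by the hyaluronan receptor lyve1b. Thrombocytes and endothelium share regulators, of which the ETS factor fli1 is one.

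The labels name the tissue as head kidney, and markers of cells that this organ holds were detected. The steroidogenic gene star, the neutrophil proteinase gene mmp9 and the B cell receptor gene cd79b were well above background on all 6 arrays. The same was true of the muscle genes ckmb, casq1b, actn3b and atp2a1l and the liver genes hp and apoa2. Detection alone therefore does not tell head kidney from other tissue. The 6 genes were also well above background on every array, and 0 of their spots were flagged as outliers or saturated. Brightness differed between arrays: the 75th percentile of processed intensity was 138 for control pool 3, 394 and 470 for control pools 1 and 2, and 499 to 710 for the MPLE pools. Levels are therefore given as log2 of the processed intensity minus log2 of that percentile on the same array, and changes as MPLE minus control. A level of one probe says nothing against a level of another.

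Among the 6 genes, the lymphatic gene lyve1b lay higher in every MPLE pool than in every control pool, by a log2 change of 2.18. The thrombocyte integrin itga2b and the VEGF receptor kdr lay lower in every MPLE pool, with changes of -0.96 and -1.13. The pools of the 2 diets overlapped for gp9, fli1 and pecam1a. After adjustment over all 23132 probes tested, 0 of the 6 genes passed 0.05 by limma, against 79 probes in all, or 0.342% (0.303% higher and 0.0389% lower with MPLE). At an unadjusted p under 0.05, 1 gene was higher and 2 were lower, where 17.7% of all probes were past it, 11.5% higher and 6.24% lower. In bulk RNA of this kind, fewer cells of a type and less RNA per cell cannot be told apart.

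**Figure D1:**
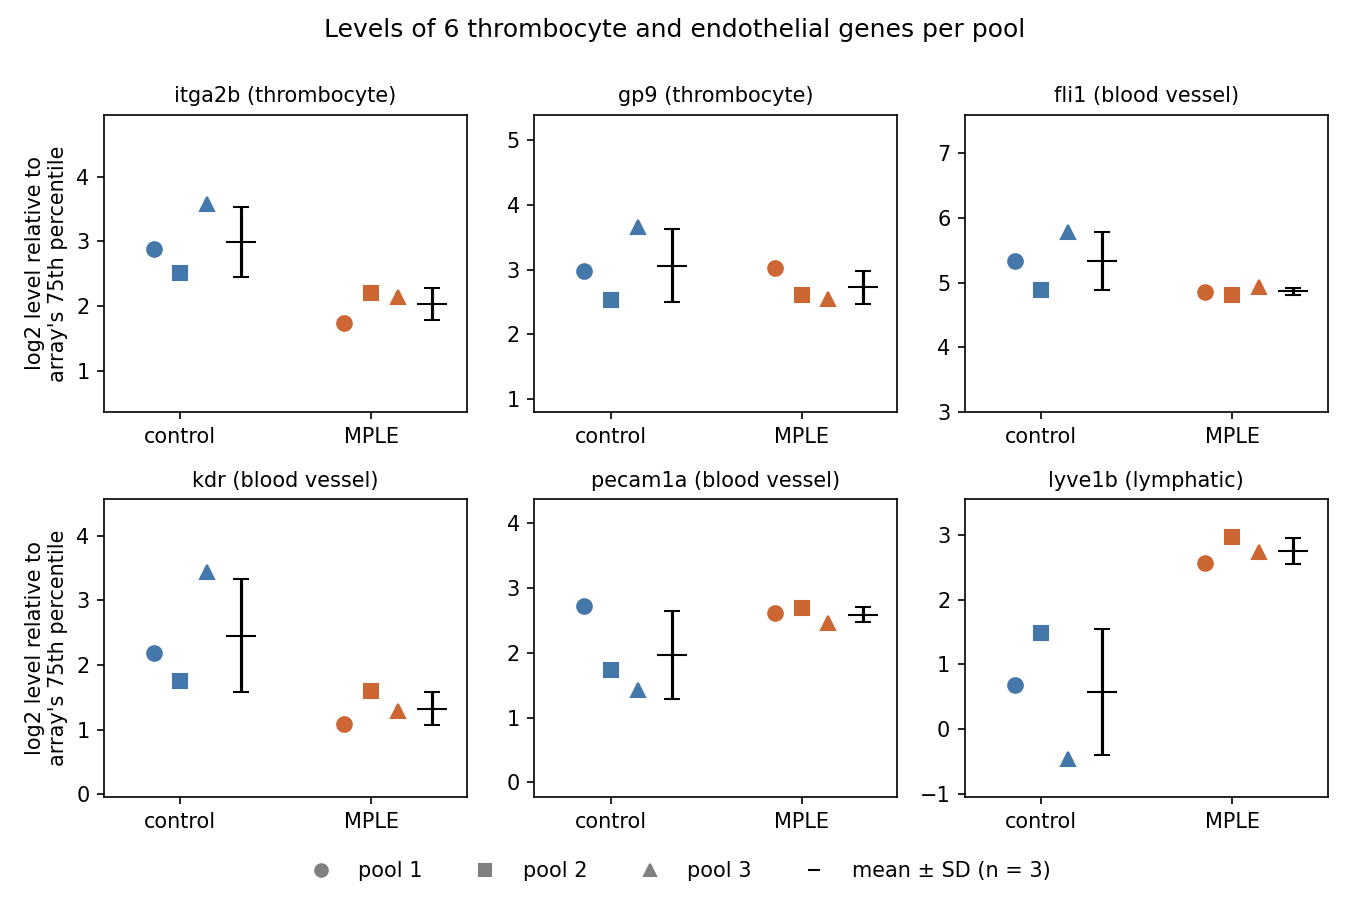
Log2 level relative to the array's 75th percentile (vertical axis, the same span in every panel) of each gene in the 3 control pools and the 3 MPLE pools, with the mean ± SD of each diet. Control pool 3 (triangle) was the highest array for itga2b, gp9, fli1 and kdr and the lowest for pecam1a and lyve1b.

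The first comparison asked how the thrombocyte genes lay in the pools. The gene itga2b (probe for XM_014192622) encodes the alpha chain of the fibrinogen receptor, called CD41 in mammals, which in zebrafish labels thrombocytes and blood stem cells. Its level was 2.89, 2.52 and 3.58 in control pools 1, 2 and 3 and 1.74, 2.21 and 2.14 in MPLE pools 1, 2 and 3. Every control pool was thus above every MPLE pool, but the gap between control pool 2 and MPLE pool 2 was 0.31, less than the pooled SD of 0.42 within a diet. The means were 2.99 ± 0.54 and 2.03 ± 0.25 (SD, n = 3 each), a difference of -0.96 with a 95% interval of -1.76 to -0.17 (limma, adjusted p = 0.214). This interval, like those below, is for the probe alone and is not adjusted over the probes tested. Spot brightness before scaling was 1646 to 2913 intensity units in control pools and 2300 to 2515 in MPLE pools, which overlap. The brightest of these spots was 1.77 times the dimmest, while the 75th percentile of the arrays spanned 5.15 times. The scaled levels of itga2b followed that percentile in exactly reverse order over the 6 arrays, as did those of kdr below. The part of array brightness in the difference for itga2b was not tested.

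The gene gp9 (XM_014145450) encodes glycoprotein IX, a part of the complex by which platelets hold von Willebrand factor. Its level was 2.98, 2.54 and 3.66 in control pools 1, 2 and 3 and 3.02, 2.61 and 2.55 in the MPLE pools in the same order. The lowest pool was a control pool and so was the highest, and apart from control pool 3 all pools lay between 2.54 and 3.02. The difference between diets was -0.33 with a 95% interval of -1.14 to 0.48 (limma, adjusted p = 0.606), and without control pool 3 it was -0.031. In MPLE pool 1 gp9 was at its highest among the MPLE pools and itga2b at its lowest.

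The second comparison concerned the blood vessel genes. The gene fli1 (NM_001140436) encodes an ETS transcription factor of endothelium and of the platelet lineage, and it is placed here with the vessel genes although it belongs to both. Its level was 5.34, 4.88 and 5.78 in control pools 1, 2 and 3 and 4.86, 4.82 and 4.93 in the MPLE pools. The MPLE pools were within 0.11 of each other, and control pool 2 lay among them. The means were 5.33 ± 0.45 and 4.87 ± 0.06 (SD, n = 3 each), a difference of -0.47 with a 95% interval of -1.15 to 0.22 (limma, adjusted p = 0.413), and without control pool 3 it was -0.24.

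The gene kdr (XM_014168997) encodes a VEGF receptor of blood vessel endothelium. Its level was 2.19, 1.75 and 3.43 in control pools 1, 2 and 3. MPLE pools 1, 2 and 3 were at 1.09, 1.60 and 1.29. Control pool 3 stood 1.25 above the next pool, while control pool 2 was only 0.15 above MPLE pool 2, against a pooled SD of 0.64. The difference was -1.13 with a 95% interval of -2.20 to -0.06 (limma, adjusted p = 0.262), and -0.64 without control pool 3. Before scaling, the spot of kdr read 1793, 1580 and 1489 intensity units for control and 1510, 1511 and 1395 for MPLE, pools in order. The brightest of these was 1.29 times the dimmest, while the 75th percentile of the arrays spanned 5.15 times, and the scaled levels of kdr followed the percentile in exactly reverse order over the 6 arrays. The part of array brightness in the difference for kdr was not tested.

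The gene pecam1a (NM_001140099) encodes platelet and endothelial cell adhesion molecule 1, which sits at the contacts between endothelial cells and in mammals also on platelets and white blood cells. Its level was 2.72, 1.74 and 1.42 in control pools 1, 2 and 3 and 2.62, 2.69 and 2.46 in the MPLE pools. Control pool 1 was the highest of all 6, next to MPLE pool 2, and the other control pools were the lowest. The difference was 0.63 with a 95% interval of -0.24 to 1.50 (limma, adjusted p = 0.393). It was 0.36 without control pool 3 and 1.01 without control pool 1, so the size rests on which control pools are counted. The intensity of its spot was 369 in control pool 3 and 1565 to 4356 on the other arrays.

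**Figure D2:**
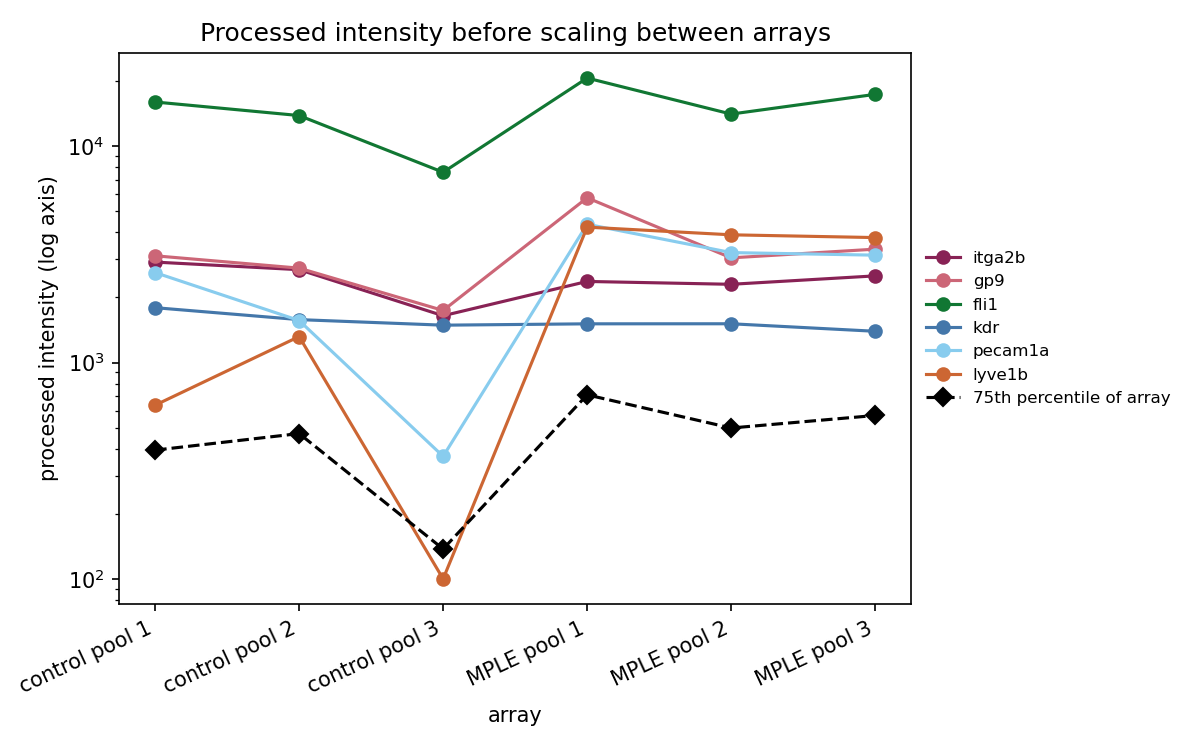
Processed intensity of the spot of each gene on each array (log axis), before any scaling between arrays, with the array's own 75th percentile as a dashed line. The line of kdr is nearly flat, from 1395 to 1793, while lyve1b runs from 100.2 in control pool 3 to 4225 in MPLE pool 1 and the percentile from 138 to 710.

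The third comparison concerned the lymphatic gene. The gene lyve1b (XM_014125672) was at 0.69, 1.49 and -0.46 in control pools 1, 2 and 3 and at 2.57, 2.96 and 2.73 in MPLE pools 1, 2 and 3. The lowest MPLE pool was 1.08 above the highest control pool, more than the pooled SD of 0.71, and the MPLE pools lay within 0.39 of each other while the control pools spread over 1.95. The means were 0.57 ± 0.98 and 2.76 ± 0.20 (SD, n = 3 each), a 4.54-fold difference with a 95% interval of 1.04 to 3.33 on the log2 scale (limma, adjusted p = 0.102). Before scaling the spot read 636, 1319 and 100.2 intensity units for control and 4225, 3893 and 3780 for MPLE, pools in order. The brightest control spot was thus below every MPLE spot before scaling. Every MPLE array was brighter at its 75th percentile (499 to 710) than every control array (138 to 470), so unscaled spots tend to read higher with MPLE. The unscaled spots of pecam1a did not overlap either (369 to 2605 for control, 3136 to 4356 for MPLE), although its scaled levels did. In control pool 3 the raw spot signal was 4.02 times the local background, and the scanner software's own error for that spot was 16.1% of its intensity, against 4.53% to 10.3% for every other spot of the 6 genes. The change was 1.67 without control pool 3. With arrays centred on their medians the adjusted p = 0.0252, and with array weights the adjusted p = 0.038, so the call depends on the processing while the direction was the same under every alternative run.

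The spread between pools was larger in the control diet for all 6 genes, by 2.14 times (itga2b) to 8.09 times (fli1) in SD. The same held for 83.9% of all probes with a value on every array, with a median SD of 0.495 over control pools and 0.197 over MPLE pools. Arrays of the diets did not overlap for 3 of the 6 genes (50%), where they did not for 28.9% of all such probes, 16.2% higher and 12.7% lower with MPLE. Diet went together with the handling of the arrays: the 6 arrays lay on 6 slides, 0 slides and 0 slide positions held both diets, and every control array was scanned ahead of every MPLE array. The diet therefore cannot be told apart from slide, position or scan order.

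Differences between 2 probes on the same array do not change with a scaling of the whole array, so the 15 pairs of the 6 genes were compared in this way. The way background is removed can still change them. The pair with the largest change was kdr and lyve1b. The log2 level of kdr minus that of lyve1b was 1.50, 0.26 and 3.89 in control pools 1, 2 and 3 and -1.48, -1.37 and -1.44 in MPLE pools 1, 2 and 3. The MPLE pools lay close together, the control pools were widely spread, and the diets did not overlap. The change of this difference was -3.31, with an exact permutation p = 0.1, two-sided, the smallest that 3 pools against 3 allow (adjusted p = 0.125 over the 15 pairs).

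The 2 thrombocyte genes also stood differently to each other. The level of itga2b minus that of gp9 was -0.10, -0.02 and -0.08 in control pools 1, 2 and 3 and -1.28, -0.41 and -0.41 in the MPLE pools, a change of -0.63 (exact permutation p = 0.1, adjusted p = 0.125). The control pools lay close together for this pair, and MPLE pool 1 stood apart from the other MPLE pools; without it the change was -0.34. In contrast, the thrombocyte gene itga2b and the vessel gene kdr overlapped between diets: their difference was 0.70, 0.77 and 0.14 in control pools and 0.65, 0.61 and 0.85 in MPLE pools, a change of 0.16 (exact permutation p = 0.7). Within the vessel genes, kdr minus pecam1a was -0.54, 0.01 and 2.01 in control pools and -1.53, -1.09 and -1.17 in MPLE pools, a change of -1.76 (exact permutation p = 0.1, adjusted p = 0.125), which shrank by over 1.5 times without control pool 3.

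Over the 15 pairs, the diets did not overlap for 12 (80%), and 3 pairs overlapped: itga2b with kdr, gp9 with fli1 and gp9 with pecam1a. The same difference taken between each of the 6 genes and every other probe with a value on all arrays did not overlap in 50.5% of cases, at 19.7% for gp9, 28% for pecam1a, 38.8% for fli1, 66% for kdr, 66.4% for itga2b and 84.3% for lyve1b. No pair could reach an exact p under 0.1 in this design. Without control pool 3 the other pairs that moved by over 1.5 times were itga2b minus pecam1a (-1.03), gp9 minus pecam1a (-0.39), fli1 minus kdr (0.40), fli1 minus pecam1a (-0.60), gp9 minus fli1 (0.21) and itga2b minus kdr (-0.031). Without MPLE pool 1, gp9 minus kdr was at 0.53 and gp9 minus fli1 at -0.017. The count of 12 holds for the processed intensities. After normexp background correction the diets overlapped also for gp9 minus kdr, fli1 minus kdr and pecam1a minus lyve1b. Their changes were then 0.96, 0.81 and -1.02 (exact permutation p = 0.2, 0.4 and 0.3). The same pairs overlapped in the series values that the authors deposited (exact permutation p = 0.2, 0.3 and 0.2).

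**Figure D3:**
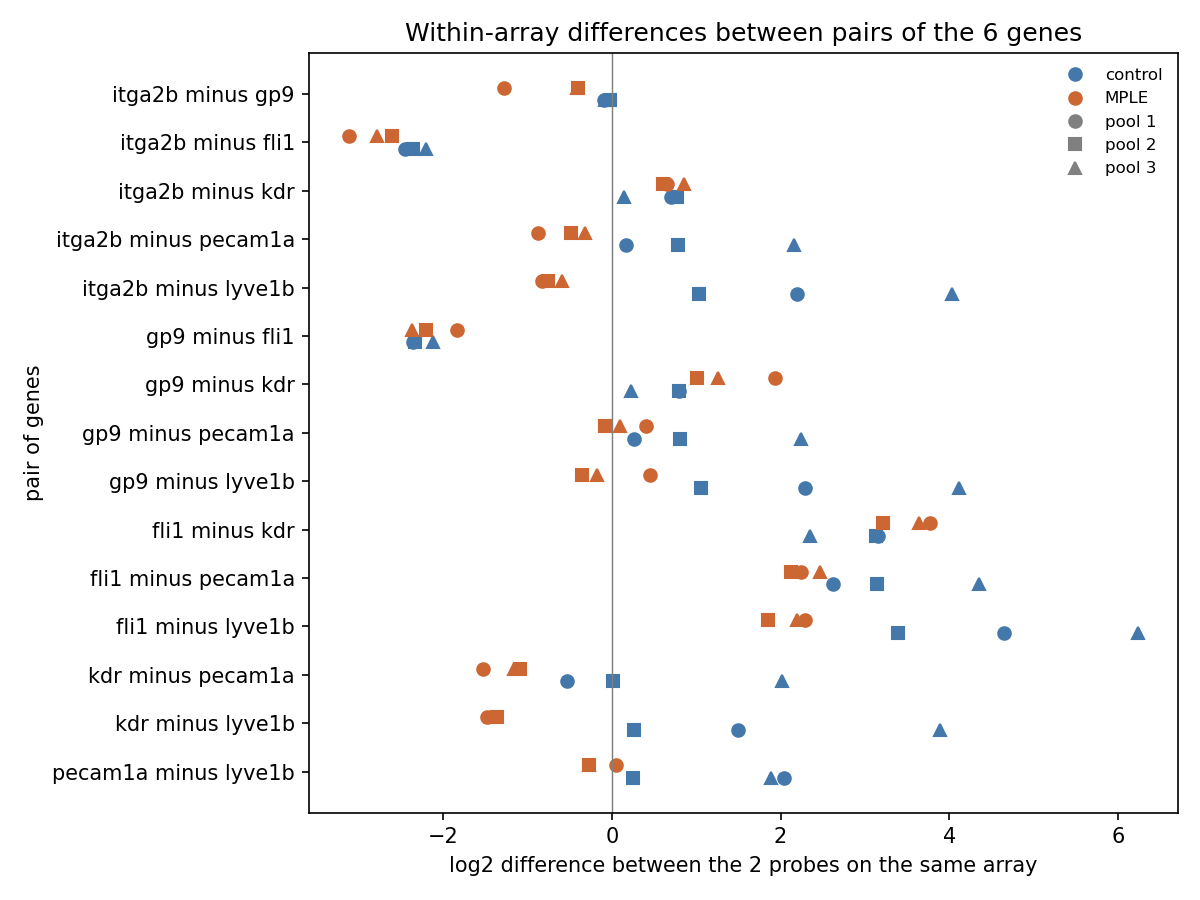
Log2 difference between 2 probes on the same array (horizontal axis) for the 15 pairs of genes, in control pools (blue) and MPLE pools (orange), with the marker giving the pool. Pairs of lyve1b with kdr, itga2b, fli1 and gp9 differ most between diets. In kdr minus lyve1b the MPLE pools lie between -1.48 and -1.37 and the control pools between 0.26 and 3.89.

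The named genes with the most similar profile were found by centring each gene on its own mean and averaging the absolute difference from the gene of interest over the 6 arrays, among 5389 named genes. Nearest to itga2b was rsu1, a partner of integrin adhesion complexes, at a mean difference of 0.0511, followed by rbm28, a nucleolar RNA-binding protein, at 0.0635, while the median named gene was at 0.505. Nearest to gp9 were tmem53, a nuclear envelope protein, at 0.0299 and segn, a calcium-binding protein, at 0.0714, against a median of 0.366. For fli1 they were glci1 at 0.0276 and tfb1m, a methyltransferase of mitochondrial ribosomal RNA, at 0.0386, against 0.327. For kdr the nearest was hira, a histone chaperone, at 0.0767, against 0.60. For pecam1a they were hddc3 at 0.0556 and metap1d, a mitochondrial aminopeptidase, at 0.0592, against 0.521. For lyve1b they were znf362a, a zinc finger protein, at 0.117 and zgc:110366 at 0.135, against 1.16. These are descriptions over 6 arrays that share their scaling. Within the 6 genes, itga2b was nearest to kdr (0.163) and gp9 to fli1 (0.152). The nearest to lyve1b was pecam1a at 0.898, below the median of 1.16 for lyve1b, and the others lay above that median, at 1.32 to 1.66.

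The other genes of each system came from lists matched by symbol. Over all 15509 genes tested at 1 probe each, the median change was -0.02, 10.4% were higher and 5.18% lower at an unadjusted p under 0.05, and 0.226% passed when adjusted. No listed gene passed when adjusted over all probes in limma, so the changes below are values, not calls, and the counts are at an unadjusted p under 0.05. The genes f2r, ptgs1, cldn5a, dll4, crk, f3a and vcam1b entered the test only through the MPLE arrays, and f5, plg and fgg only through the control arrays. Each of these 10 genes lay higher in the diet that admitted it, so a count or median that holds them is a description and supports no direction.

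Of 54 symbols for thrombocytes and platelets, 15 genes were tested: 1 was higher, 3 were lower and 11 did not reach an unadjusted 0.05, with a median change of -0.23, and of -0.08 over the 12 that are not among the 6 genes. The 3 lower were itga2b itself, gata1 and fynb. The erythroid and thrombocyte transcription factor gata1 was at 2.60, 2.27 and 2.60 in control pools 1, 2 and 3 and at 1.94, 1.94 and 1.76 in MPLE pools, a change of -0.61 (limma, adjusted p = 0.244). All control pools were above all MPLE pools for gata1, and control pool 3 was not apart from the others. After normexp background correction the change of gata1 was -0.28. The thrombin receptor f2r was at -2.03, -2.35 and -2.43 against -1.74, -1.55 and -1.73, a change of 0.60 (adjusted p = 0.254), but it is the 1 higher gene of the list, its spot cleared background on 2 of the 3 control arrays, and its change was 0.11 after normexp background correction. The Src family kinase fynb had a change of -0.91 (adjusted p = 0.257), with control pool 3 at 2.68 and the other control pools at 1.59 and 1.49, and MPLE pools at 0.92 to 1.08. Without control pool 3 the change of fynb was -0.53 and the median of the thrombocyte list -0.066.

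Of 81 symbols for blood vessel endothelium, 16 genes were tested: 1 was higher, 1 was lower and 14 did not reach an unadjusted 0.05, with a median of -0.11, and of -0.04 over the 13 others. The lower gene was kdr itself, and the higher one was cldn5a, which entered only through the MPLE arrays. The tight junction gene cldn5a, a seal of endothelial barriers, was at -2.77, -3.14 and -3.48 in control pools 1, 2 and 3 and at -1.40, -1.72 and -1.88 in MPLE pools. The diets did not overlap for cldn5a, and its change was 1.46 (limma, adjusted p = 0.0805), but its spot cleared background on 2 of the 3 control arrays, and the change was 0.18 after normexp background correction. The flow-responsive transcription factor klf2a had a change of -0.46 (adjusted p = 0.371). The tissue factor pathway inhibitor tfpia, made by endothelium, had a change of 0.68 (adjusted p = 0.377). Without control pool 3, tfpia was at 0.30 and the median of this list at 0.051, which turns its sign.

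Of 30 symbols for lymphatic and sinusoidal endothelium, 5 genes were tested, of which lyve1b was higher and 4 did not reach an unadjusted 0.05. The other 4 all had negative changes, with a median of -0.24. The hyaluronan scavenger receptor stab2 of sinusoids was at 4.94, 4.67 and 5.60 in control pools 1, 2 and 3 and at 4.53, 5.10 and 4.87 in MPLE pools, a change of -0.24 (limma, adjusted p = 0.692). The pools of the 2 diets were interleaved for stab2. The vessel factor foxc1 had a change of -0.57 (adjusted p = 0.324) and the venous and lymphatic factor nr2f2 one of -0.24 (adjusted p = 0.66). Without control pool 3, stab2 was at 0.023 and nr2f2 at 0.0058.

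**Figure D4:**
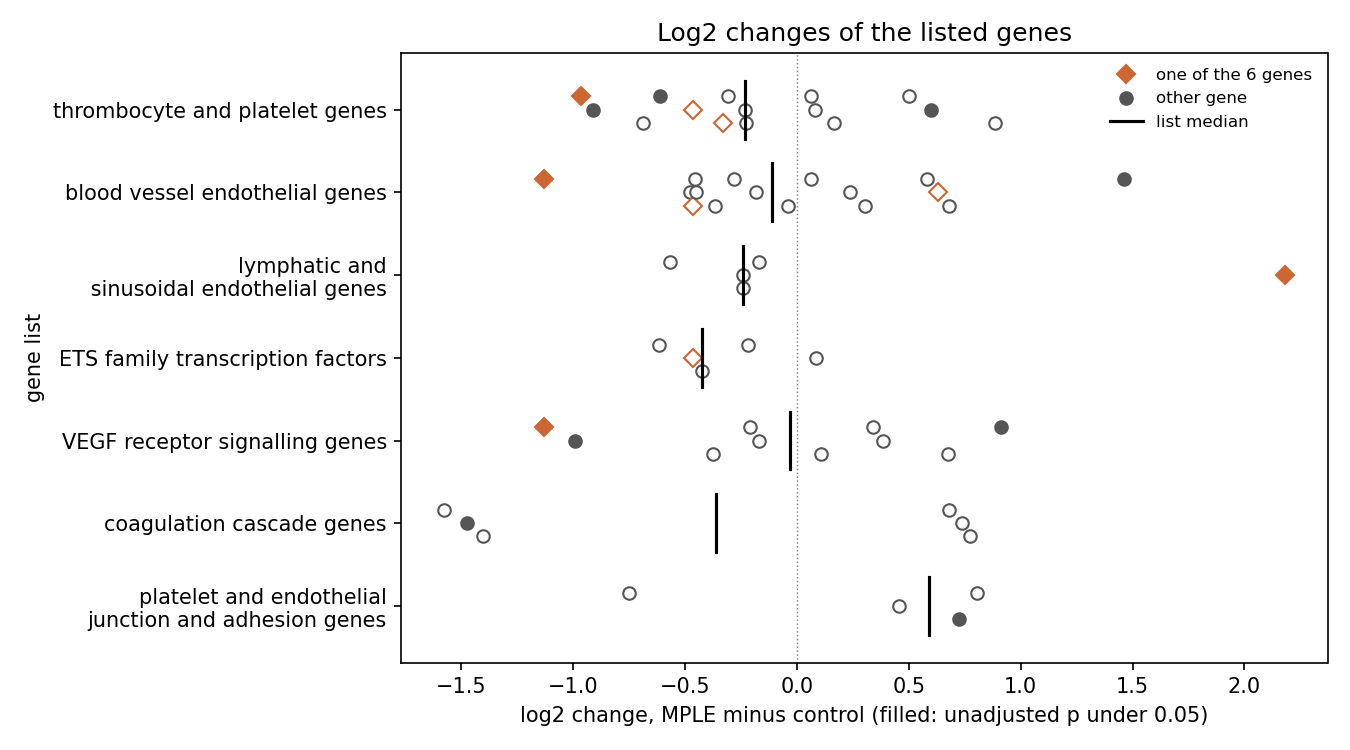
Log2 change, MPLE minus control, of every tested gene of the 7 lists, with the 6 genes as orange diamonds, other genes as circles and the list median as a black bar. Filled markers had an unadjusted p under 0.05, and lyve1b at 2.18 stands alone in its list, whose other genes lie between -0.57 and -0.17.

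Of 29 ETS family symbols, 5 genes were tested and 0 reached an unadjusted 0.05, with a median of -0.42, and of -0.32 over the 4 without fli1. Beside fli1, elk3 had a change of -0.62, ets2 one of -0.42 and elf1 one of -0.22 (adjusted p = 0.351, 0.41 and 0.625). Of 50 symbols for signalling from VEGF receptors, 10 genes were tested: 1 was higher, 2 were lower and 7 did not reach an unadjusted 0.05, with a median of -0.03. The gene kdr is 1 of the 2 lower genes, and the median over the 9 others was 0.11, of the opposite sign. The kinase gene mapk3 had a change of -0.99 (adjusted p = 0.223) and lay, like kdr, highest in control pool 3, where it read 1.92, with control pools 1 and 2 at 0.95 and 0.74 and the MPLE pools at 0.04 to 0.33. The lipid kinase subunits pik3ca and pik3r1 had changes of 0.91 (adjusted p = 0.229) and 0.67 (adjusted p = 0.414), and pik3r1 had no value in control pool 3, where its spot was an outlier. The change of pik3r1 was 0.064 without control pool 2 and 1.28 without control pool 1, and that of mapk3 was -0.63 without control pool 3. The median of this list was 0.13 without control pool 1 and -0.15 without control pool 3.

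Of 34 coagulation symbols, 6 genes were tested: 1 was lower and 5 did not reach an unadjusted 0.05, with 3 negative and 3 positive changes. Their median of -0.36 has no stable sign: it was 0.73 for probes well above background on all 6 arrays, 0.28 without MPLE pool 1, 0.12 without control pool 2, -1.06 without control pool 3 and 0.10 with array weights. Clotting factor f5 had a change of -1.47 (adjusted p = 0.223) and cleared background on 2 of the 3 MPLE arrays, and factor f10 had a change of 0.77 (adjusted p = 0.343). Without control pool 3, f10 was at 0.37. The gene tfpia, given above, is also in this list. Of 30 junction and adhesion symbols, 4 genes were tested: 1 was higher and 3 did not reach an unadjusted 0.05, with a median of 0.59. The endothelial adhesion molecule vcam1b had a change of 0.73 (adjusted p = 0.265) and cleared background on 1 of the 3 control arrays, and after normexp correction it was at -0.34 and the list median at -0.30. The catenin ctnnb1 had a change of 0.80 (adjusted p = 0.309) and the fibronectin receptor chain itga5 one of -0.75 (adjusted p = 0.344). Without control pool 3 they were at 0.46 and -0.40, and elk3 of the ETS list was at -0.40.

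The markers of other cells were summed beside these values, and 0 of them passed when adjusted in limma. At an unadjusted p under 0.05, 4 of 4 skeletal muscle genes and 1 of 5 liver genes were lower. Higher were 2 of 4 T cell genes and 1 of 3 red blood cell genes. The neutrophil, fibroblast and kidney tubule lists each had 1 higher and 1 lower. Both of the tubule list, slc5a1 and slc22a6l, entered only through the diet in which they were higher. Over all genes tested, 10.4% were higher and 5.18% lower. Of 12 marker lists, 2 had summed levels that did not overlap between diets, the sum being of linear intensities relative to the 75th percentile. For single probes with a value on every array, the diets did not overlap in 28.9% of cases. For T cells, with 4 of 13 symbols tested (cd3e, cd8a, lat and eomes), the sum was 1.25 to 3.76 in control pools and 4.33 to 4.63 in MPLE pools. It was lowest in control pool 3, as was lyve1b, but eomes, lat and cd3e cleared background on 2 of the 3 control arrays and entered only through the MPLE arrays. For skeletal muscle, with 4 of 20 symbols tested, it was 15.5, 11.4 and 46.1 in control pools 1, 2 and 3 and at most 7.92 in an MPLE pool, highest in control pool 3, as were itga2b, gp9, fli1 and kdr. The macrophage sum, over 4 of 14 symbols, overlapped between diets but was also highest in control pool 3, at 263 against at most 147 on the other arrays. The same array had the highest sum for B cell markers (176), kidney tubule markers (38.2) and the 1 red blood cell gene summed (151). It had the lowest sum for interrenal markers (113) and fibroblast markers (10.8), although the interrenal gene mrap was highest there (0.34). Such sums are carried by their brightest genes. In control pool 3 the B cell genes btk, xbp1, pou2af1 and tnfrsf13b were highest, but cd79b was lowest (3.19) and blnk (3.04) lay below control pool 1 (3.77). The tubule sum there was mostly aqp1 (5.22), beside slc22a6l at -0.15 and slc5a1 at -3.55. The red cell gene tfr1a, not summed, was lowest there (5.77). The part of these cells in the values of the 6 genes was not tested, and neither was binding of the probes to transcripts of related salmon genes.

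**Figure D5:**
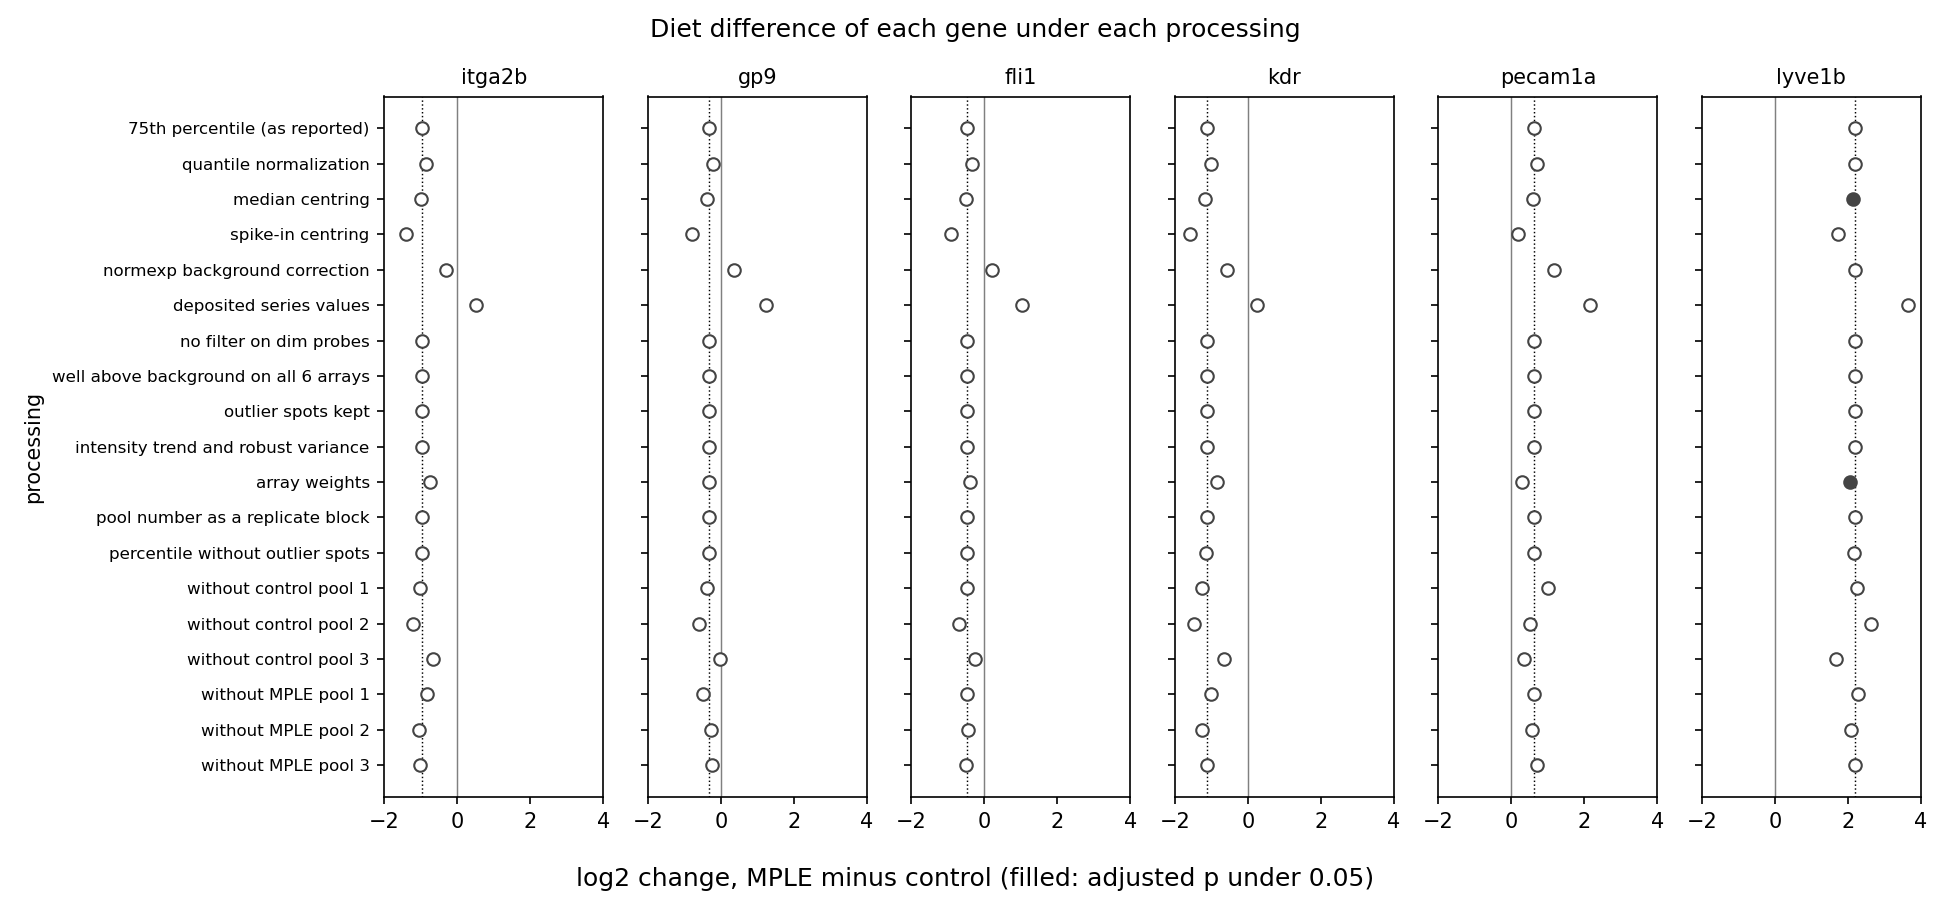
Log2 change, MPLE minus control (horizontal axis), of each of the 6 genes under each way of processing (rows), with filled markers where the adjusted p was under 0.05. Only lyve1b has filled markers, for median centring (2.14) and array weights (2.05), and gp9 and fli1 cross 0 after normexp correction (0.38 and 0.22).

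The changes of the 6 genes depended on how arrays were scaled and background was removed. After normexp correction of the raw spot signals, gp9 was at 0.38 and fli1 at 0.22, both turned in sign, kdr at -0.58 and itga2b at -0.31, each smaller by over 1.5 times, and pecam1a at 1.18, while lyve1b was at 2.20. With arrays centred on the spike-in RNA added to each labelling reaction, the changes were 0.18 for pecam1a, -0.78 for gp9, -0.91 for fli1, -1.41 for itga2b, -1.57 for kdr and 1.74 for lyve1b, and the median of all probes was -0.46. In the series values the authors deposited, which are not scaled between arrays, all 6 were higher with MPLE, from 0.26 for kdr to 3.64 for lyve1b, where the median probe was also higher by 1.05.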

How the data were processed

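One-colour Agilent arrays measured Cy3 cRNA of 3 pools per diet, with spike-in RNA added before labelling, per the labels' protocols. Per the file headers, spots were read on a G2505C scanner with Feature Extraction 10.7.3.1 under GE1_107_Sep09, giving an intensity corrected for background within its array. The authors deposited series values in log2, equal to the unscaled background-subtracted signal within 5.00e-09. The design text mentions a reference design, but the files have 1 colour.

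Processed intensities were turned to log2 and the 75th percentile of 42438 non-control spots subtracted. Outlier spots (6 to 205 per array) were dropped, and probes kept where well above background on all arrays of either diet. Diet was tested with limma 3.58.1 (lmFit, eBayes, R 4.3.3), two-sided, adjusted by Benjamini-Hochberg over 23132 probes. The intervals are not adjusted over probes, and the fit takes a probe's spread to be the same in both diets. The number of arrays limits the precision, and p-values measure the spread between pools and their arrays together. Of 42386 probes, 25641 matched a gene of a RefSeq table (assembly Ssal_v3.1, used for names only, since no source used here names the build behind the probes). The fit was tested on simulated data in which a probe had the same spread in both diets. The wider spread between control pools was therefore not covered by that test.

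The genes and lists were chosen with earlier results of these data known. From each list the text names the 3 genes outside the 6 with the smallest p, and for each of the 6 the 2 nearest named genes, of which 1 for kdr is not reported here; star, mmp9 and cd79b were picked after their values were seen. Alternatives were other scalings, background corrections and filters, the deposited values, other variance models, weighted arrays, a block by pool number, and leaving out each array. Averaging the probes of a gene was not run separately, since each of the 6 genes has 1 probe.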

Additional observations from a re-analysis of the deposited data

How the results depend on the processing

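No alternative placed itga2b, gp9, fli1, kdr or pecam1a past an adjusted p of 0.05, and lyve1b passed with median centring (2.14) and array weights (2.05); over all alternatives its adjusted p ran from 0.0252 to 0.438 and its change from 1.67 to 3.64. The signs of gp9 (0.38), fli1 (0.22), elf1 (0.41), pik3ca (-0.19) and vcam1b (-0.34) turned after normexp correction. In the deposited series values, where arrays are not scaled, itga2b (0.51), gp9 (1.23), fli1 (1.03), kdr (0.26), elk3 (0.25), ets2 (0.21), elf1 (1.31), mapk3 (0.31), klf2a (0.47), foxc1 (0.50), nr2f2 (0.41), stab2 (0.46), itga5 (0.57), gata1 (0.56) and fynb (0.19) turned positive. List medians moved beyond their spread with spike-in centring to -0.68 (thrombocyte), -0.56 (blood vessel), -0.68 (lymphatic), -0.87 (ETS) and -0.48 (VEGF receptor signalling), with normexp to 0.11 (thrombocyte) and 0.22 (ETS), and in the deposited values to 1.09, 1.05, 0.50, 1.03 and 0.96 in the order first given. The junction median was 0.027 with outlier spots kept, 0.098 with spike-in centring and -0.30 with normexp, and the coagulation median ran from -1.24 without the filter on dim probes to 0.73 with the strictest.

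Leaving out 1 array at a time gave changes of -1.20 to -0.67 for itga2b, -0.59 to -0.031 for gp9, -0.69 to -0.24 for fli1, -1.48 to -0.64 for kdr, 0.36 to 1.01 for pecam1a and 1.67 to 2.64 for lyve1b, with the value nearest 0 always that without control pool 3. The change ran from -0.38 to 0.0058 for nr2f2, from -0.44 to 0.023 for stab2 and from -0.35 to 0.0058 for the lymphatic median. Of the pairs, itga2b minus kdr ran from -0.031 to 0.28 and gp9 minus fli1 from -0.017 to 0.25. Leaving out an array also changes which probes pass the filter.

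The 79 probes past the adjusted threshold (70 higher, 9 lower; 4096 at an unadjusted p under 0.05) became 19 with quantile normalization, 537 with median centring, 14 with spike-in centring, 24 with normexp, 123 with outlier spots kept and 480 with array weights. By limma there were 0 in the deposited values (3854 at an unadjusted p under 0.05), 0 without the filter on dim probes (4166), and 0 to 133 with 1 array left out; the counts of 0 came without control pool 1 (5075) or MPLE pool 1, 2 or 3 (2787, 2537 and 2148), and 113 and 133 without control pools 3 and 2. A percentile taken without outlier spots, chosen after seeing the data, gave 108. At an unadjusted p under 0.05 the share of higher calls was 64.8%, against 11.3% with spike-in centring, 37.8% with normexp, 98.7% in the deposited values and 49.6% with probes well above background on all 6 arrays. The causes were not tested.

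Pool number as a replicate block gave 249 probes and called none of the 6 genes (lyve1b adjusted p = 0.0643). Same-numbered pools deviated from the means of their diets with correlations across probes of -0.18, -0.34 and 0.08, and no pool correlated best with its own number. With 3 pools per diet, these values cannot decide whether the numbers pair the pools. Control pools 1, 2 and 3 correlated best with MPLE pools 3 (0.28), 1 (0.47) and 2 (0.32). Spots of lyve1b in control pool 3, at 4.02 times the local background, and of cldn5a, f2r, vcam1b and f5 on some arrays lie near background, which limits their values.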
